A study of Mus musculus with 8 samples.

Results

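The genes described here are 8 genes of peripheral myelin and of the Schwann cells that make it: Pmp22, Mbp, Mal, Mag, Ncmap, Drp2, Prx and Sox10. They were chosen by name, and a probe set was used for a gene only where the annotation of the array names that 1 gene. By this rule 7 of the 8 genes had a probe set, 19 probe sets in all, out of 34945 probe sets naming 1 gene (18193 genes) among the 45101 on the array. Prx, which encodes the Schwann cell scaffold protein periaxin, is not analysed here.

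The study profiled RNA of the normal mouse cochlea on Affymetrix mouse whole-genome arrays, which read each gene by 1 or more sets of short oligonucleotide probes. Its 1 group is 8 CBA/CaJ mice, an inbred strain with good hearing, with 1 array for each mouse. The mice received urethane (300 mg/kg) and were perfused through the heart with saline, and soft tissue (the organ of Corti, the spiral ligament and the modiolus) from the ears of a mouse was pooled before RNA isolation and amplification. The labels give no treatment contrast, age, sex or batch, so the comparisons are between mice, between genes and between probe sets of a gene. The modiolus holds the spiral ganglion and the auditory nerve, so each sample mixes glia, neurons, epithelium and connective tissue. In such a mixture fewer cells of a type and less RNA per cell cannot be told apart.

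Schwann cells wrap axons of the peripheral nervous system in myelin, a stack of membrane that speeds conduction. In the auditory nerve they myelinate the peripheral part, and oligodendrocytes myelinate the central part near the brainstem. Some myelin proteins, such as those of Mbp and Mag, are made by oligodendrocytes too, whereas Pmp22, Ncmap, Drp2 and Prx are known mainly from peripheral nerve. Mobp is a myelin protein gene of oligodendrocytes. Sox10 and Egr2 are transcription factors of the Schwann cell program.

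The promoters of Pmp22, known mainly from peripheral nerve, and of Mag, a gene of both kinds of myelin, are printed as examples. Each sequence is 250 bases from RefSeq (GRCm38.p6), on the strand of its gene and ending just before the most upstream start in that table. The capitals mark a match to the SOX motif, searched as ACAAAG or ACAATG on both strands. The Pmp22 window is chr11:63128732-63128981 (plus strand), upstream of the first of 4 starts, and the Mag window is chr7:30914923-30915172 (minus strand), upstream of the first of 3 starts.
Pmp22: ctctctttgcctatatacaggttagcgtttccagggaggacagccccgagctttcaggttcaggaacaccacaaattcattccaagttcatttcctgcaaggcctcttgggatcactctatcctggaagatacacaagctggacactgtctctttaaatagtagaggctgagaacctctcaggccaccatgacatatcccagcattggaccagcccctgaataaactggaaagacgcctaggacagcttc
Mag: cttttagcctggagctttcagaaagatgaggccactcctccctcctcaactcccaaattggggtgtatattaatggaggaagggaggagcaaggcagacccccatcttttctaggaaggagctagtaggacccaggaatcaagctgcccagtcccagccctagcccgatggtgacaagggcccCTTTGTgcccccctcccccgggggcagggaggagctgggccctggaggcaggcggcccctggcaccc
The Mag window held 1 SOX match, 67 bases upstream of the start. The windows of Pmp22, Mal and Ncmap held 0. No window of these 4 genes held the EGR motif, searched as GTGGGCG on both strands. Over 27026 promoter windows of the same length, 25.4% held the SOX motif and 7.04% the EGR motif. GC content was 48.8% in the Pmp22 window and 61.2% in the Mag window. A match is only a run of letters, and a window without one says nothing about the factor.

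The signals are MAS5 values in arbitrary units, scaled so that the mean without the lowest and highest 2% of values was 500 on every array. A level depends on the probe set as well as on the RNA, so signals of different genes are not compared as amounts. Pairs of arrays had correlations of 0.945 to 0.960. The ratio of the 3′ to the 5′ probe set was 1.39 to 1.54 for Gapdh and 1.86 to 2.23 for Actb. A gene was called detected where its signal was above a background threshold on all 8 arrays. The threshold lay above 95% of the values of 107 probe sets for 69 genes of unrelated organs and was 177 to 270 by array. Of those probe sets 4 read Ttr, the brightest with a signal of 2461 to 4609. A lower threshold from 79 probe sets of olfactory and vomeronasal receptors, 37.8 to 62.7 by array, was added after the data were seen. Genes of the labelled tissue were detected: 12 of 12 of the spiral ligament fibrocytes, 11 of 14 of supporting cells and 17 of 27 of spiral ganglion neurons. Mouse 1 stood apart, with the highest signal of the 8 mice for 36.6% of detected genes and the lowest for 26.3%.

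Of the 7 genes with a probe set, 6 were detected on all 8 arrays, and Mag was not. Over all genes of the array 46.5% were detected by the same rule. With the receptor threshold 6 of the 7 were again detected, against 64.8% of all genes. Each gene is described by its brightest probe set unless another is named, with probe sets of the _x_at class, which can bind other transcripts, set aside.

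Pmp22 encodes a tetraspan protein of compact myelin, and its dosage is altered in inherited neuropathies. Its signal was 9086.0, 7850.8, 7129.4, 8204.9, 7690.1, 6452.9, 7204.7 and 7615.5 in mice 1 to 8, a mean of 7654 ± 785 (SD, n = 8). Mouse 1 was highest and mouse 6 lowest, and the other 6 mice lay between 7129.4 and 8204.9. The SD on the log2 scale was 0.15 over the 8 mice and 0.08 over those 6. Of all detected genes, 44.3% had an SD at or below that of Pmp22 over the 8 mice.

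Mbp encodes the basic proteins that hold the cytoplasmic faces of myelin together, in Schwann cells and in oligodendrocytes. Its signal was 9487.9, 6931.1, 6577.4, 7971.3, 6334.4, 9286.5, 6029.8 and 6823.8 in mice 1 to 8, a mean of 7430.3 ± 1335 (SD, n = 8). Mice 1 and 6 were the highest pair, as they were for 3.38% of detected genes, and the signals of the other 6 mice were 6029.8 to 7971.3. The log2 SD was 0.25 over the 8 mice, which 84.6% of detected genes did not exceed. It was 0.14 without mice 1 and 6.

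Mal encodes a small membrane protein of lipid-rich membranes that is found in compact myelin and also in epithelia and T cells. Its signal was 4232.7, 4173.9, 4122.8, 4659.5, 4122.2, 3939.4, 3958.5 and 3899.1 in mice 1 to 8, a mean of 4139 ± 242 (SD, n = 8). Mouse 4 was highest, and the other 7 mice stayed within 3899.1 to 4232.7. With a log2 SD of 0.08 this probe set varied little, since only 9.30% of detected genes had an SD as small or smaller. Its log2 SD was 0.05 without mouse 4. The low spread did not recur on the other Mal probe set, 1432558_a_at. There the log2 SD was 0.20, which 68.1% of detected genes did not exceed.

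Mag encodes an adhesion protein of the membrane that faces the axon, in both kinds of myelin. Its signal was 115.5, 48.8, 31.1, 49.9, 32.8, 128.0, 65.0 and 43.2 in mice 1 to 8, a mean of 64.3 ± 37.2 (SD, n = 8). The signal was above the main threshold on 0 of 8 arrays and above the receptor threshold on 4, those of mice 1, 6, 7 and 8. Mice 6 and 1 were highest, and the other 6 mice lay between 31.1 and 65.0. The signals of mice 2 to 5 were below both thresholds, so the size of any difference between mice is not read for Mag.

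Ncmap encodes a membrane protein of noncompact myelin in peripheral nerve. Its signal was 477.0, 456.0, 307.7, 559.3, 425.4, 437.3, 516.2 and 396.5 in mice 1 to 8, a mean of 447 ± 76.4 (SD, n = 8). Mouse 4 was highest and mouse 3 lowest. The log2 SD was 0.26, which 87.1% of detected genes did not exceed, and 0.17 without mouse 3.

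Drp2 encodes a dystrophin-related protein that joins periaxin to the dystroglycan complex on the outer Schwann cell membrane. Its signal was 2553.8, 3473.5, 2131.1, 3290.0, 3265.6, 2667.8, 3360.6 and 3657.1 in mice 1 to 8, a mean of 3049.9 ± 533 (SD, n = 8). Mouse 8 was highest, and mice 3, 1 and 6 were the lowest 3 and lay apart from the other 5, which began at 3265.6. The log2 SD was 0.27, which 88.8% of detected genes did not exceed.

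Sox10 encodes the transcription factor that Schwann cells need at every stage, and it is also active in melanocytes and other cells of the inner ear. Its signal was 3690.0, 3507.2, 3358.8, 3594.4, 3013.2, 3267.0, 3416.6 and 3229.7 in mice 1 to 8, a mean of 3385 ± 217 (SD, n = 8). Mouse 1 was highest and mouse 5 lowest, in a narrow range. The log2 SD was 0.09, and 14.8% of detected genes had one at or below it. On the dimmer Sox10 probe sets it was larger. It was 0.20 on 1424985_a_at (70.0% of detected genes at or below) and 0.31 on 1425369_a_at (93.8%).

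**Figure D1:**
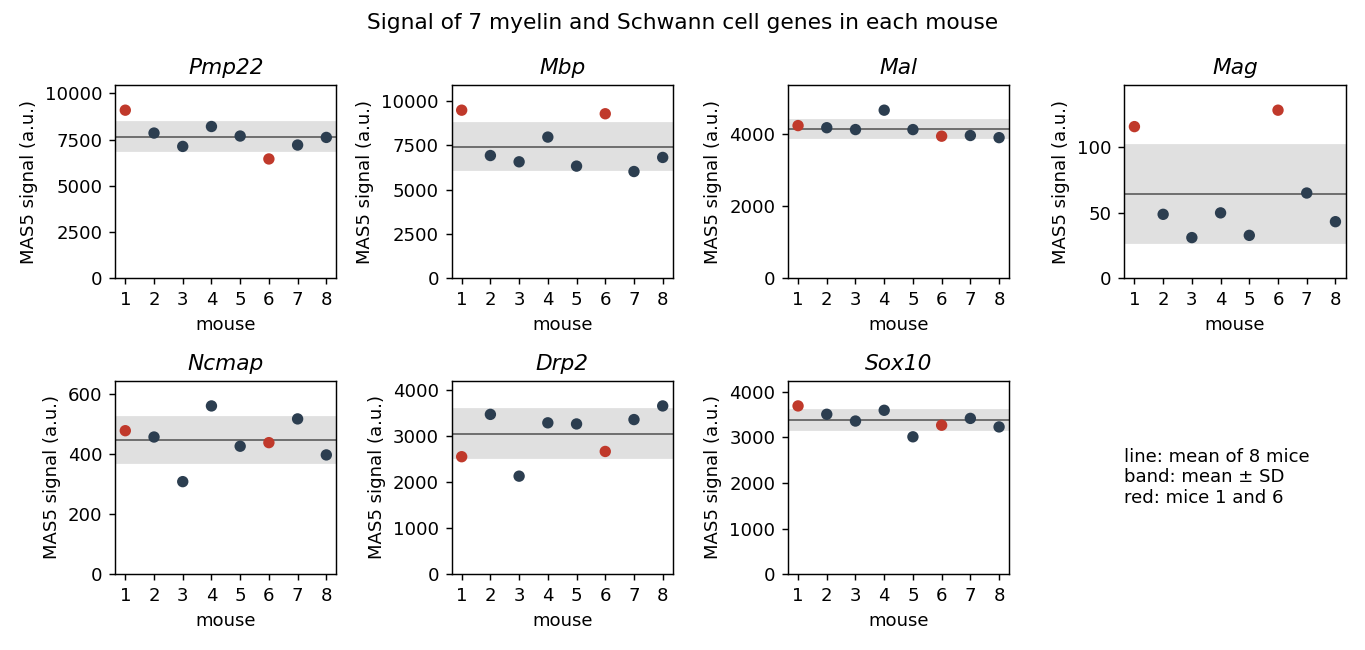
MAS5 signal (vertical axis, arbitrary units, from 0, own scale in each panel) of the brightest probe set of 7 genes in mice 1 to 8 (horizontal axis). Each point is 1 array, the line the mean of 8 mice and the band the mean ± SD, with mice 1 and 6 in red. The red points are the highest pair for Mbp (9487.9 and 9286.5) and for Mag (115.5 and 128.0), and for Pmp22 they are the highest and the lowest value.

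The order of the mice differed between the 6 detected genes. Mouse 1 was highest for 3 of the 6 (Pmp22, Mbp and Sox10), beside 36.6% of all detected genes, and mouse 3 was lowest for 2 (Ncmap and Drp2), beside 12.3%. For Sox10 mouse 1 was highest on the brightest probe set only. Mice 1 and 6 were the highest pair for 1 of the 6, Mbp, and for 286 of the 8464 detected genes (3.38%). Within an array, the log2 difference of Mbp from Pmp22 was taken relative to its mean over mice. It was 0.58 in mouse 6 and 0.12 in mouse 1, against −0.22 to 0.01 in the other 6 mice. Pmp22 itself was lowest in mouse 6 and highest in mouse 1. The same difference of Mbp from Sox10 was 0.39 in mouse 6 and 0.24 in mouse 1, against −0.30 to 0.03 in the others. Differences taken within an array do not depend on the scaling of that array.

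Several probe sets of a gene show whether its differences between mice recur with other probes. For each of 2606 genes with 2 detected probe sets outside the _x_at class, the correlation of the 2 brightest across mice was tested with a one-sided exact permutation test over all pairings of the mice and Benjamini-Hochberg adjustment over these genes. The test called 309 genes, 11.9% of them. Of the 3 genes described here that could be tested, Mbp and Sox10 were called and Mal was not. Pmp22, Mag and Ncmap had 1 probe set each, and Drp2 had 1 above the threshold.

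Mbp had 8 probe sets. The brightest (1433532_a_at) and the next (1419646_a_at) had a Pearson r of 0.93 (exact permutation adjusted p = 0.0283, n = 8 mice). On the next probe set mice 1 and 6 were again highest, with 5415.1 and 4071.2, and the other mice were at 2136.2 to 3148.6. Without mice 1 and 6 the correlation was 0.73. The call was lost when mouse 1, 2, 4, 5 or 6 was left out (exact permutation adjusted p = 0.0578 to 0.100, with 5040 pairings), and when _x_at probe sets were allowed (adjusted p = 0.333).

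The remaining Mbp probe sets split. Mice 1 and 6 were also highest on 1451961_a_at (666.3 and 536.8, the others 261.7 to 361.6), on 1454651_x_at (8331.4 and 7242.0, the others 4503.3 to 5933.0) and on 1436201_x_at (9050.2 and 6642.7, the others 4120.2 to 5501.1). On 1456228_x_at mouse 6 was highest at 8167.2, but mouse 1 was lowest at 4593.5. On 1425264_s_at the order was the other way round, with mouse 1 highest at 1491.5 and mouse 6 lowest at 976.5. The signal of 1425263_a_at was 49.4 to 68.9, above the main threshold on 0 of 8 arrays. Mouse 6 was thus among the highest 2 mice on 6 of the 7 Mbp probe sets with signal above the threshold, and mouse 1 on 6 of the 7. The Mbp locus makes several transcripts, and the sources used here do not say which of them each probe set reads.

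Sox10 had 3 probe sets. The 2 brightest (1451689_a_at and 1424985_a_at) had a Pearson r of 0.86 (exact permutation adjusted p = 0.0447, n = 8 mice), and 0.91 without mice 1 and 6. Mouse 5 was lowest on all 3, with 3013.2, 731.0 and 124.4. The highest mouse was not the same. Mouse 1 was highest on 1451689_a_at, but mouse 2 was highest on 1424985_a_at (1115.2, with 1027.9 in mouse 1) and on 1425369_a_at (230.9, with 210.1 in mouse 1). The call lay close to the threshold: without any 1 mouse the adjusted p of the exact permutation test was 0.0612 to 0.147, and with each array scaled to its median it was 0.0917.

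The 2 probe sets of Mal were not called. They had a Pearson r of −0.23 (exact permutation adjusted p = 0.878, n = 8 mice), which was 0.37 without mouse 4 and −0.65 without mouse 1 (adjusted p of the exact test = 0.431 and 0.971), so its sign rests on mouse 4. Mouse 4, the highest on 1417275_at, was the lowest on 1432558_a_at, where the signal was 1515.1, 1239.7, 1020.7, 984.9, 1050.1, 1148.3, 1160.2 and 1176.6 in mice 1 to 8. The 2 brightest probe sets of Drp2 had an r of 0.69 with the receptor threshold (exact permutation adjusted p = 0.122). The dimmer, 1440452_at, was at 131.8 to 234.3, and mouse 1 was the lowest on it. The third, 1441542_at, was at 4.1 to 38.9.

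Several oligodendrocyte genes were high in mice 1 and 6, as Mbp was. Of 18 genes on an oligodendrocyte and central glia list, mice 1 and 6 were the highest pair for 12. Of these 12, 9 were above the receptor threshold in both mice, 4 of them in no other mouse, and 1 (Gpr37) was detected on all arrays, so most of the 12 are dim and their share is not set against that of detected genes. The summed signal of the list was 6669 in mouse 1 and 5979 in mouse 6, against 2415 to 2740.3 in the other 6 mice. Without Mobp, its largest contributor in both mice, the sum was 4337 and 3717, against 2251 to 2624, and without Mobp, Mog, Klk6 and Ermn it was 3490.0 and 2957, against 2168 to 2585. On this list 3 genes were detected on all 8 arrays, 8 with the receptor threshold, and 2 were above the receptor threshold on no array. The part of oligodendrocytes in the Mbp and Mag signals was not tested.

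Mobp, a myelin protein gene of oligodendrocytes that had also been placed on the peripheral list, had 2331.4 and 2262.1 in mice 1 and 6, against 48.9 to 201.2 in the others. Mog, found on the surface of central myelin, had 314.5 and 355.8 in mice 1 and 6, against 2.5 to 28.9. The oligodendrocyte genes Klk6 (362.2 and 250.7, against 6.3 to 50.9) and Ermn (170.7 and 153.4, against 6.4 to 26.7) had the same high pair. Gfap, a filament protein gene of astrocytes and nonmyelinating Schwann cells, had 805.2 and 1292.3 in mice 1 and 6, against 122.0 to 414.5. Opalin, another gene of central myelin, was at 3.0 to 20.7 and above the receptor threshold on 0 of 8 arrays. Mobp, Klk6, Ermn and Gfap were singled out after their values were seen. Among the 3 genes of the oligodendrocyte list detected on all arrays (Gpr37, Aldh1l1 and Aspa), mice 1 and 6 differed far less from the others. Gpr37 had 1174.9 and 919.3 in mice 1 and 6, against 705.4 to 877.9. Aldh1l1 had 728.7 and 494.1, against 431.6 to 636.8, and Aspa had 449.2 and 404.4, against 337.5 to 426.9.

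**Figure D2:**
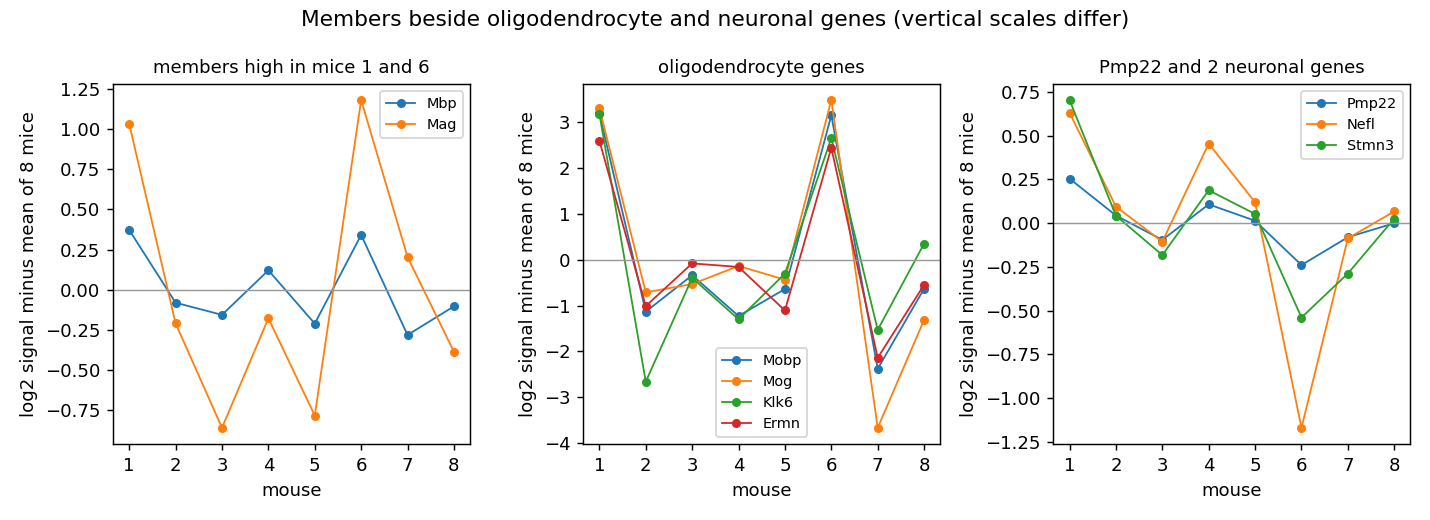
Log2 signal minus the mean of 8 mice (vertical axes, log2 units, with a different scale in each panel) by mouse (horizontal axes) for Mbp and Mag, for 4 oligodendrocyte genes, and for Pmp22 with the neuronal genes Nefl and Stmn3. Each point is 1 array, and the Mag signals are below the main threshold. The first 2 panels peak at mice 1 and 6, and in the last mouse 1 is highest and mouse 6 lowest for all 3 genes.

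Among the other genes of peripheral myelin, 15 of 23 were detected, 20 with the receptor threshold. The brightest 4 were Cd9, Ndrg1, Cnp and Arhgef10. The median log2 SD of the detected ones was 0.16, and over all detected genes it was 0.16 as well. The summed signal of all 23 ran from 22785 in mouse 3 to 28945 in mouse 1 and was 26917 in mouse 6. It includes the oligodendrocyte gene Mobp, which gave 201.2, 2331.4 and 2262.1 of these sums in turn. Cnp, an enzyme of myelin cytoplasm, had 1890.6 in mouse 3 and 2724.9 in mouse 4, the mice that were also the ends for Ncmap. Gjb1, the connexin 32 gene of noncompact myelin, was at 17.6 to 76.1, above the main threshold on 0 of 8 arrays and above the receptor threshold on 3. Pmp2, a lipid-binding myelin protein gene named here after its values were seen, was at 3.6 to 25.4, above neither threshold on any array.

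Of 30 genes of Schwann cell identity and signalling, 19 were detected, 24 with the receptor threshold. The brightest 4 were S100b, Yy1, Ncam1 and Adgrg6, and the median log2 SD was 0.19. S100b, a calcium-binding protein gene of glia, had 9860.4 in mouse 7 to 13892.2 in mouse 1. Erbb3, the receptor through which axonal neuregulin acts on Schwann cells, had 1975.4 to 2558.8. Egr2, the transcription factor that switches on myelin genes, had 657.3 in mouse 3, its lowest, and 1292.0 in mouse 4, its highest.

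Of 18 genes of the dystroglycan complex and its laminin and integrin partners, to which Drp2 is linked, 14 were detected, 16 with the receptor threshold. Utrn, Sntb1, Pxn and Dag1 were the brightest, and the median log2 SD was 0.15, against 0.27 for Drp2. Dag1, the gene of dystroglycan itself, had 2950.5 in mouse 1 and 2110.3 to 2542.4 in the other 7, so mouse 1 was its highest and one of the lowest 3 for Drp2.

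Genes of other cells that express some of these genes were present as well. Of 14 genes of the pigment cells of the stria vascularis, which express Sox10, 10 were detected, among them Dct, Mitf, Met and Kcnj10. The summed signal of all 14 was 42593 (mouse 7) to 51347 (mouse 1), and Mitf, a regulator of pigment cells, had 7178.5 to 8737.3. Of 12 T cell and epithelial genes listed because such cells express Mal, 4 were detected, the epithelial genes Cdh1, Epcam, Krt18 and Krt8. The summed signal of that list was 15355 (mouse 7) to 18146 (mouse 5). Of its 5 T cell genes, Cd2 was at 240.8 to 426.4, above the main threshold on 7 of 8 arrays and above the receptor threshold on all 8. Cd3e and Cd3g were above the receptor threshold on no array, and Cd3d and Cd8a on 1 (mouse 8). The part of these cells in the Sox10 and Mal signals was not tested. Of 11 genes of nerve fibroblasts and perineurium 5 were detected, of 7 bone genes 3, of 12 skeletal muscle genes 1 and of 12 neutrophil and erythroid genes 3. The summed signal of the neutrophil and erythroid list was lowest in mouse 7 (3094) and highest in mouse 3 (38352).

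Each of the 7 genes was correlated across the 8 mice with every detected gene, 59242 pairs in all. No pair was called (0%) by the two-sided exact permutation test with Benjamini-Hochberg adjustment within each gene. With 8 mice the smallest p this test can give is 2.48e-05. After adjustment over so many genes, a call needs several genes at or near that p, so the absence of calls says little. At an unadjusted p under 0.05 there were 1583 genes for Pmp22 (18.7% of 8463), 473 for Sox10 (5.59%), 422 for Mbp (4.99%), 400 for Mal (4.73%), 397 for Mag (4.69% of 8464, with signals below the main threshold), 256 for Ncmap (3.02%) and 175 for Drp2 (2.07%). The genes named next are the 5 with the highest Pearson r for each, so their r values are a description.

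For Pmp22 they were Stmn3, Dnm1, Ckmt1, Prkar1b and Kif5a, with r of 0.97 to 0.98. Stmn3, a regulator of microtubules in neurons, had 6939.5 in mouse 1, 2933.8 in mouse 6 and 3491.7 to 4855.2 in the others. Its r with Pmp22 was 0.98 and its rho 0.95 (exact permutation p = 0.000223 and 0.00114, adjusted p of r = 0.102), and its r was 0.94 without mice 1 and 6, the farthest from the median of Pmp22. The other 4 kept an r of 0.89 to 0.93 without these mice. Nefl, the gene of the light neurofilament of axons, had 6059.0, 4179.1, 3636.5, 5362.6, 4250.6, 1740.6, 3685.3 and 4100.6 in mice 1 to 8, with the same highest and lowest mouse as Pmp22. Its r with Pmp22 was 0.93 and its rho 0.98 (exact permutation p = 0.000298 and 0.000397, adjusted p of r = 0.102), and r was 0.94 without mice 1 and 6.

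The signal of neurons varied widely between the mice. The 17 detected genes of 27 on the spiral ganglion neuron list had a median log2 SD of 0.51, and the summed signal of the list was 52816 in mouse 1, 23015 in mouse 6 and 34335 to 48897 in the others. The part of neuronal content in the Pmp22 signal was not tested. The range of Pmp22 was smaller than that of Nefl: its log2 difference from Nefl within an array, relative to the mean over mice, was 0.93 in mouse 6 and −0.38 to 0.01 in the other 7.

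For Mbp the 5 nearest genes were Chd2, Tubb4a, Slc41a1, Sfxn5 and Vegfb, with r of 0.92 to 0.96, and 0.76 to 0.86 without mice 1 and 6. Tubb4a encodes a tubulin of neurons and oligodendrocytes. For Mag, whose signal was not above the main threshold on any array, no nearest genes are given. For Mal they were Pik3c3, Stat6, Dnm1l, Dync1h1 and Dnajc2 (r of 0.93 to 0.96, and 0.73 to 0.95 without its farthest mice, 4 and 8). For Sox10 they were Spryd3, Pcyt1a, Fkbp4, Pacsin1 and Phf23 (0.94 to 0.96, and 0.78 to 0.96 without mice 1 and 5). For Ncmap they were Vapb, 2810013P06Rik, Cln3, Arfgef2 and Pdzd4 (0.90 to 0.97, and 0.51 to 0.88 without mice 3 and 4), and for Drp2 Brms1l, 1600014C10Rik, P2rx7, Cnot8 and Gnpda1 (0.89 to 0.97, and 0.72 to 0.93 without mice 1 and 3). None of the 7 genes was among the nearest 5 of another.

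Ncmap and Drp2 were set beside Egr2, Erbb3, S100b, Cnp and Dag1. For Ncmap r was 0.65, 0.30, −0.23, 0.85 and 0.22 with these genes in turn, and for Drp2 it was 0.71, 0.50, −0.38, 0.69 and −0.20. Full values are given for the highest of these for each, which was picked after the values were seen. Further genes were correlated with them too, among them Dusp15 of the peripheral myelin list. Its r was 0.83 with Ncmap (0.19 without mice 3 and 4) and 0.78 with Drp2 (0.15 without mice 1 and 3). The r of Ncmap with Cnp was 0.85 and its rho 0.38 (exact permutation p = 0.0277 and 0.360, adjusted p of r = 0.990), and r was −0.67 without mice 3 and 4, so the relation rests on those mice. The r of Drp2 with Egr2 was 0.71 and its rho 0.45 (exact permutation p = 0.0505 and 0.267, adjusted p of r = 1.0), and r was near 0 (−0.00098) without mice 1 and 3.

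Between the genes themselves the correlations were modest. The 15 pairs that leave out Mag had a median r of 0.38, from −0.36 (Mbp with Drp2) to 0.59 (Pmp22 with Mal), and 12 of the 15 were above 0. Over the 6 mice without 1 and 6 the median was 0.53, from −0.07 to 0.82, and 13 of the 15 were above 0. Pairs of these genes with all detected genes had a median r of 0.05 over the 8 mice. Mbp and Pmp22 had an r of 0.22 and a rho of 0.38 over 8 mice (exact permutation p = 0.592 and 0.360, adjusted p of r = 0.873 over the genes tested with Mbp), and an r of 0.81 without mice 1 and 6. Mbp and Mal had an r of 0.26 and a rho of 0.38 over 8 mice (exact permutation p = 0.564 and 0.360, adjusted p of r = 0.866), and an r of 0.82 without mice 1 and 6. Over those 6 mice Ncmap and Drp2 had an r of 0.71. Leaving out mice 1 and 6 was chosen after the oligodendrocyte genes were seen, and 6 mice give an r little precision.

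**Figure D3:**
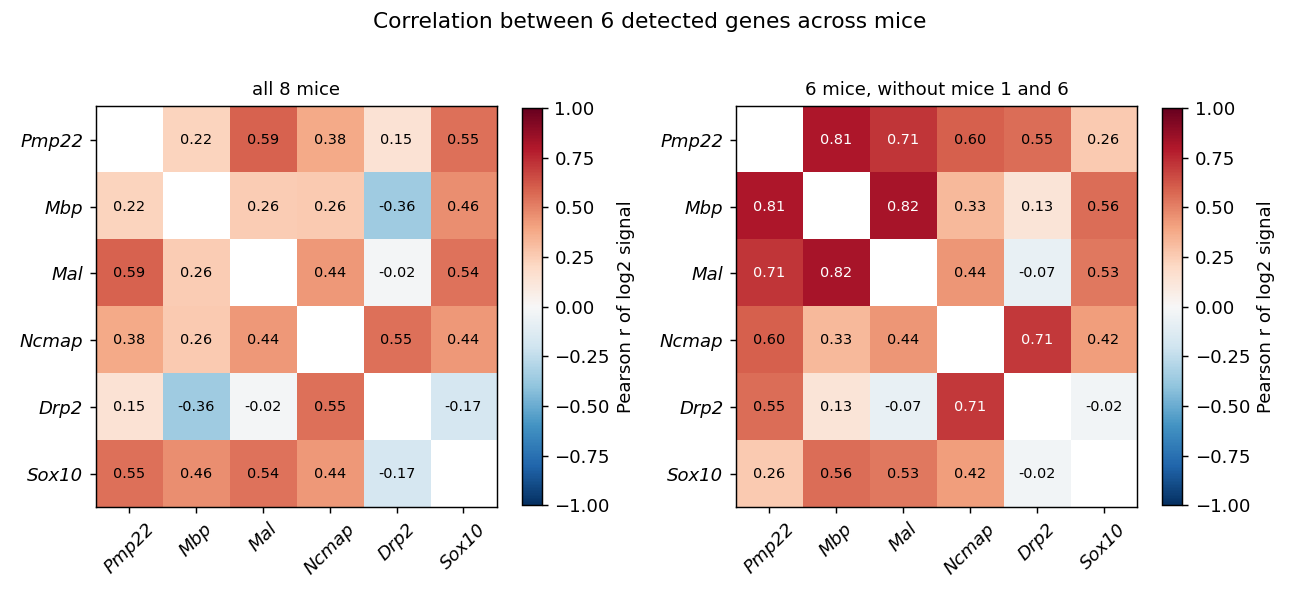
Pearson r of log2 signal between each pair of the 6 detected genes (rows and columns, colour from −1 to 1), over 8 mice on the left and over the 6 mice without 1 and 6 on the right. The diagonal is blank. Mbp with Pmp22 is 0.22 on the left and 0.81 on the right.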

How the data were processed

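RNA of the pooled cochlear soft tissue of each of 8 CBA/CaJ mice was amplified with the Ovation system and hybridised to 1 array per mouse, per the labels' protocols. The deposited values are linear intensities per probe set, which the authors made with MAS5 software, as the submitters' processing notes name it; its version is not stated there. Their trimmed mean was 500 on every array, so the authors had scaled the arrays to a common level. Genes were named from the platform annotation: 34945 of 45101 probe sets named a single gene and were used, while 932 named more and 9224 had no name. The annotation matched current gene identifiers for 34741 probe sets. Promoters came from RefSeq (GRCm38.p6), where 5 of the 8 genes had an entry.

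A gene was read by its brightest probe set by mean log2 signal, outside the _x_at class where it had another, with signals under 1 set to 1. Correlations were tested over all pairings of mice, adjusted by Benjamini-Hochberg, with 0.05 as the threshold. In each test the unit is the mouse, so a difference may come from dissection or assay too. The statistics were tested on simulated data. The genes named are all 8 members, the 5 detected genes nearest to each detected member, the brightest 4 detected of each list and genes linked to a member; others are said to have been chosen after their values were seen. The members, the 14 gene lists (background genes included) and the alternatives were chosen with earlier results of these data known. Scripts ran in Python 3.11.15 with pandas 2.3.3, numpy 2.4.6 and scipy 1.17.1, and plots were drawn with matplotlib 3.10.9. With 8 arrays, their number limits the precision of every correlation.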

Additional observations from a re-analysis of the deposited data

Results flagged for a closer look

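In 29 probe sets, those of the 7 genes and of the genes set beside them, the highest and the lowest of the 8 mice were compared with the others by Dixon's criterion, 58 ends in all, and 2 were far from the rest. Chance flags about 5% of groups, where a group is the 8 values of a probe set, so the 2 stand against 29 groups and not 58 ends. On the brighter probe set of Mal mouse 4 had 4659.5, against 3899.1 to 4232.7 in the other 7 mice, and on the other Mal probe set the same mouse was lowest. For Nefl mouse 6 had 1740.6, against 3636.5 to 6059.0 in the other 7.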

How the results depend on the processing

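The count of 6 detected genes of 7 was taken again under 19 alternatives, 17 planned and 2 added after the data were seen. It was 2 with the 99th percentile of the background and 5 with the mean of all probe sets. With the second brightest probe set, which only Mbp, Mal, Sox10 and Drp2 have, the count was 3. With no filter it was 7 by definition, because every gene with a probe set then counts as detected. Under the remaining alternatives it was 6. The 309 genes with agreeing probe sets became 490 with _x_at probe sets allowed, 51 with the 99th percentile (107 genes tested), 202 with no filter, 35 to 201 with 1 mouse left out (lowest without mouse 1, highest without mouse 4) and 0 without mice 1 and 6, where only 720 pairings exist and the exact permutation test gave 580 genes at an unadjusted p under 0.05. Agreement was not run for a gene read by a mean or by its second probe set. Read by the second brightest probe set, Mbp had a log2 SD of 0.47, against 0.25. Mal and Sox10 then had 0.20 each, against 0.08 and 0.09, and Drp2 had 0.30, against 0.27. The Mbp call was also lost with no filter (exact permutation adjusted p = 0.0540) and without mice 1 and 6 (0.255), and the Sox10 call with no filter (0.0852), with the receptor threshold (0.0568) and without mice 1 and 6 (0.125). With no filter the r of Mbp and of Sox10 was unchanged (0.93 and 0.86), while the genes tested rose from 2606 to 8469. With the receptor threshold the r of Sox10 was also unchanged, and 4746 genes were tested. With _x_at probe sets allowed, Mbp was tested on a different pair, 1433532_a_at and 1456228_x_at, with an r of 0.37. With each array scaled to its median the r of Sox10 was 0.78. Where mice were left out, fewer pairings exist. The median r of all 21 pairs, those of the dim Mag probe set included, was 0.38, and 0.17 to 0.51 with 1 mouse left out (lowest without mouse 3, highest without mouse 6) and 0.53 without mice 1 and 6. No correlation with a detected gene was called under any alternative. Where mice were left out this could hardly come out otherwise. Only 5040 pairings exist with 1 mouse left out and 720 without mice 1 and 6, so a call needs many genes at the smallest p. No paired analysis was possible because all mice belong to 1 group. Signals near the background, such as those of Mag, say little about small differences.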
